A study of Mus musculus with 6 samples.

Results

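The 44 genes described here encode the machinery of mitosis: the kinases and cyclins that start it, the spindle, the kinetochores, the checkpoint that delays anaphase, the condensins and the proteins of cytokinesis. They were taken by name from the deposited table of 53110 genes, and all 44 were among the 16266 genes with enough reads to be tested. The table compares neural stem cells (NSCs) from mouse cerebral cortex that were wild type (WT) with Setd5+/- NSCs, in which CRISPR-Cas9 had disrupted 1 allele of Setd5, a gene for a SET-domain chromatin protein. Both were grown as adherent cultures at 21% oxygen with the growth factors EGF and FGF. Libraries prepared from their total RNA were sequenced in paired reads. There were 3 samples labelled WT and 3 labelled Setd5+/-, and the sample columns of the mutant name 1 clone, A3.

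The 3 samples of a genotype were parts of 1 library. They shared a sequencing index and lane and differed by less than sampling noise, with a chi-square per degree of freedom of 0.961 to 0.986 over genes for the 6 pairs within a genotype and of 34.85 to 34.98 for the 9 pairs between genotypes. They were therefore counted as 1 sample, n = 1 per genotype, of 30004634 reads in WT and 21435546 in Setd5+/- NSCs. The genotypes cannot be told apart from the clones, libraries, indexes and lanes that carried them, and no difference below has a replicate check. The limma test used for the calls compares the reads of the 2 libraries, at an adjusted threshold of 0.05, so calls are counted against their share among all genes and no p-value is given. The 95% interval beside each log2 fold change (log2 change, Setd5+/- over WT) covers counting error only. Values are normalized counts, that is reads divided by the size factor of the sample. Setd5 itself stood at 2498, 2749 and 2780 in the WT samples against 2151, 1990 and 2055 normalized counts in the Setd5+/- ones, a log2 fold change of -0.37 (-0.44 to -0.31), so each Setd5+/- value lay below each WT value.

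Markers of NSCs were present in both genotypes, at levels that differed, except Prom1, which went from 24.6 in WT to 2.38 normalized counts in Setd5+/- NSCs. Among all tested genes 30.3% were called higher and 30.9% lower. All 11 markers of neural stem cells were tested, with 3 called higher and 7 lower. Their summed level was 74945 to 75111 in WT and 54224 to 54997 in Setd5+/- NSCs. Fabp7 went from 36015 to 11490 and Vim from 9095 to 13822 normalized counts. The 8 oligodendrocyte lineage markers summed to between 40997 and 41788 in WT and between 23688 and 24533 in Setd5+/- NSCs, mainly from Olig1. Of these, 3 were called higher and 4 lower, with Sox10 from 298 to 1.59, Mbp from 32.3 to 6.35 and Cspg4 from 769 to 1448. The 5 astrocyte markers summed to 799 to 818 and 1239 to 1402, with 3 markers higher and 1 lower. Among them Gfap went from 17.1 to 263 normalized counts and Aldh1l1 from 380.4 to 147. Of 9 neuronal markers, 4 were under 10 normalized counts in WT and 6 in the mutant, Neurod1 was listed at 0 in both, and Map2 gave nearly all of the sum of 10245 to 10611 in WT and 12476 to 12594 in Setd5+/- NSCs. Map2 was the 1 neuronal marker called higher, and 3 were called lower, Dcx (248 to 26.2 normalized counts), Syt1 (64.9 to 5.16) and Snap25 (19.1 to 5.56). The 6 microglial markers summed to 78.6 to 119 and 51.2 to 70.3, with Cx3cr1 and Ptprc at 0 in both, the 5 endothelial markers to 9.11 to 16.5 and 13.1 to 26.2, and the 7 mesenchymal and pericyte markers to 14.1 to 19.1 and 4.76 to 14.3, with Lum at 0 in both. The part of these marker differences in the results on mitotic genes was not tested.

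Mitosis is driven by Cdk1 bound to cyclin B, with the Polo and Aurora kinases, and ends when the anaphase promoting complex (APC/C) marks cyclin B and securin for destruction. Most of its genes are transcribed in a burst in G2 and M phase. Their promoters are known for a cell cycle homology region (CHR), which binds the MuvB core shared by the repressive DREAM complex and the activating B-Myb and FoxM1 complexes, and for CCAAT boxes, which bind NF-Y. NSCs of the cortex are a proliferating population, and RNA of these genes is a common marker of dividing cells in them.

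The mitotic genes were higher in Setd5+/- than in WT NSCs, but not evenly. Of the 44, 37 were called higher and 0 lower by limma, and 7 had no call. Among all 16266 tested genes, 30.3% were called higher and 30.9% lower. The median log2 fold change of the 44 genes was 0.56, beside -0.02 over all tested genes. A log2 fold change of at least 0.5 was reached by 26 of the 44 and by 22.4% of all genes, and one of at least 1 by 9 of the 44 and by 10.3% of all genes. In 36 of the 44 the lowest Setd5+/- value lay above the highest WT value, beside 32.4% of all genes. Fold changes on the log2 scale ran from -0.21 for Pttg1 (ENSMUSG00000020415, GRCm38 chromosome 11 from 43420250 to 43426251) to 1.66 for Anln (ENSMUSG00000036777, chromosome 9 from 22332012 to 22389188). In bulk RNA a larger share of cells in G2 or mitosis and more RNA of these genes per dividing cell cannot be told apart.

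**Figure D1:**
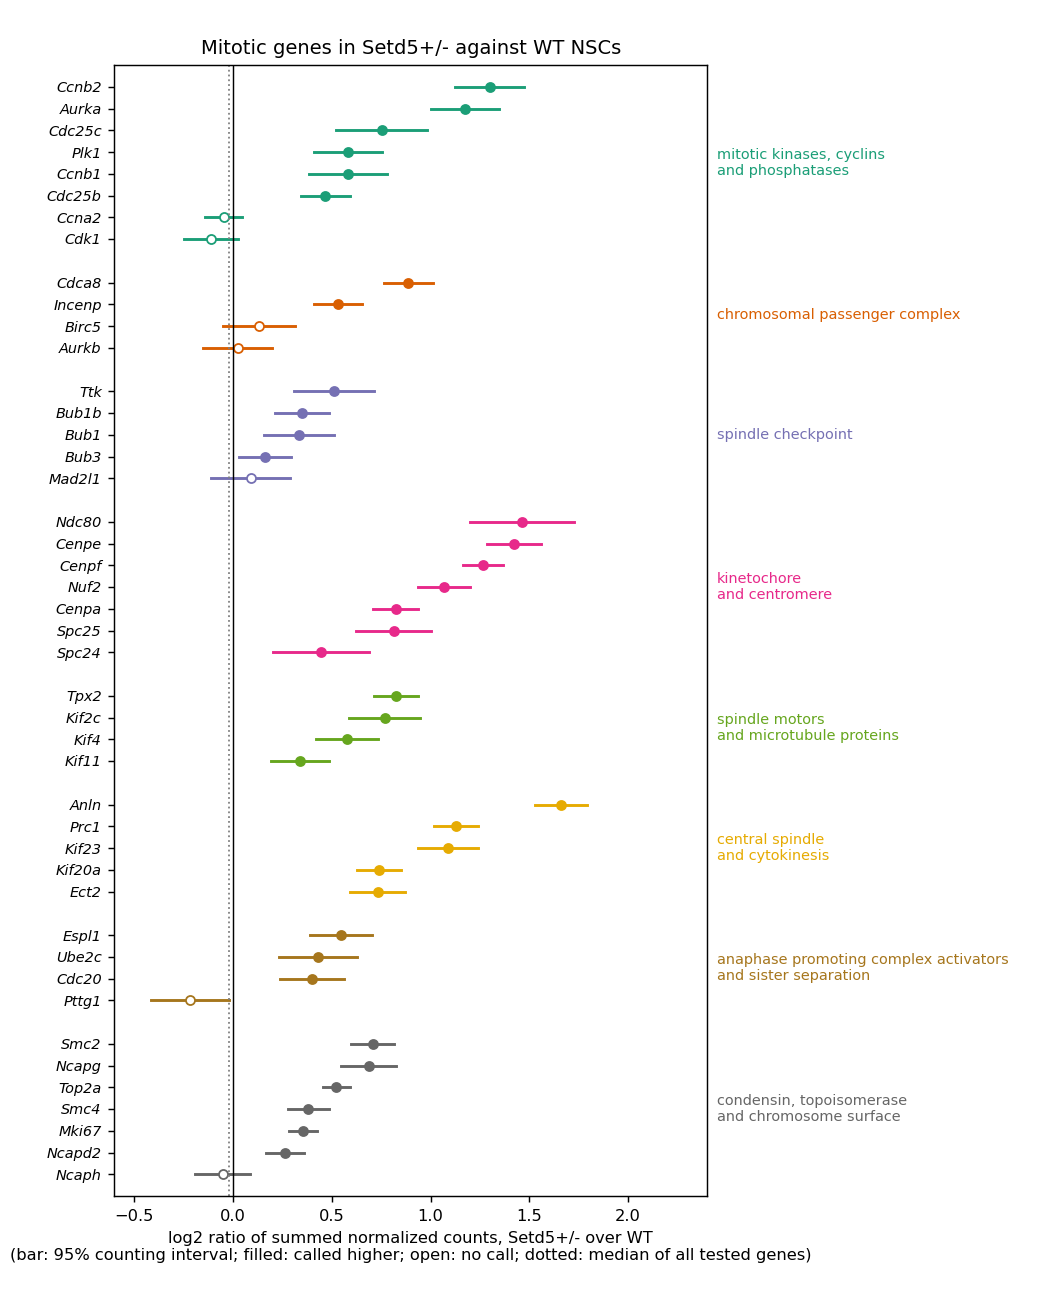
Log2 ratio of the summed normalized counts of Setd5+/- over WT NSCs for the 44 mitotic genes, grouped by role, with the 95% counting interval as a bar. Filled points are the 37 genes called higher and open points the 7 with no call, and the rises are unequal within a role, as between Cdca8 and Aurkb of the chromosomal passenger complex.

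Promoters are shown first because the genes share motifs that their selection did not use. RefSeq windows (build GRCm38.p6) from 250 bases before to 50 after a transcription start were found for 36 of the 44 genes. Incenp, Smc4, Kif20a, Spc24, Ccna2, Cdc25c, Tpx2 and Aurkb were not matched. The CHR was searched as TTTGAA and TTCGAA and the CCAAT box as CCAAT, on both strands, and overlapping matches were each counted. A gene was counted once, over all of its windows. A CHR match was found for 29 of the 36 genes, beside 21.7% of all 27025 genes with a window (19.2% of all 32851 windows). A CCAAT match was found for 28 of the 36, beside 41.1% of all genes (37.4% of all windows), and both motifs for 26 of the 36, beside 9.65% of all genes (7.52% of all windows). Of the 36 genes, 26 had a CHR match that began between 60 bases before and 40 after the start, as 6.58% of all genes did. In 7 genes, Aurka, Ccnb1, Ccnb2, Cdca8, Cdk1, Spc25 and Ube2c, a pair of CCAAT matches began 31 to 35 bases apart, as in 1.53% of all genes.

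The stretches below run from 110 bases before the start to 10 after it, 5′ to 3′ on the strand of the gene, and capitals mark CHR and CCAAT matches on either strand. The first 4 belong to genes called higher, and all 4 hold both motifs. The largest rises are not printed: Anln and Ndc80 had no CCAAT match and Cenpe had no CHR match. Ccnb2 lies at chr9:70421545-70421664 on the minus strand, Prc1 at chr7:80294341-80294460 on the plus strand, Cdc20 at chr4:118437334-118437453 on the minus strand and Top2a at chr11:99024180-99024299 on the minus strand. In Ccnb2, 3 CCAAT boxes at an even spacing precede a CHR at the start, in Prc1 a CCAAT box precedes a CHR, in Cdc20 CCAAT boxes lie on either side of a CHR, and in Top2a 3 CCAAT matches precede a CHR on the opposite strand.
Ccnb2: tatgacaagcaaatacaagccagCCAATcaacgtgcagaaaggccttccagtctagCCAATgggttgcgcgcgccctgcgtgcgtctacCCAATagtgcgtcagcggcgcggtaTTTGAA
Prc1: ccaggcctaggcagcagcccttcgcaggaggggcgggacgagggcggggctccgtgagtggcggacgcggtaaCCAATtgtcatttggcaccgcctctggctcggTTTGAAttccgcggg
Cdc20: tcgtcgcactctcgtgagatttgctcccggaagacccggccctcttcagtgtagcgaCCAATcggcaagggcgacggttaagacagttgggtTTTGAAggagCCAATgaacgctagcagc
Top2a: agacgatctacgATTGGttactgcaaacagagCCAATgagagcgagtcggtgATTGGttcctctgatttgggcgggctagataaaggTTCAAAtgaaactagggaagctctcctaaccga

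The next 5 belong to the genes with no call that have a window. Cdk1 lies at chr10:69352903-69353022 on the minus strand, Pttg1 at chr11:43425972-43426091 on the minus strand, Ncaph at chr2:127133945-127134064 on the minus strand, Birc5 at chr11:117849127-117849246 on the plus strand and Mad2l1 at chr6:66535111-66535230 on the plus strand.
Cdk1: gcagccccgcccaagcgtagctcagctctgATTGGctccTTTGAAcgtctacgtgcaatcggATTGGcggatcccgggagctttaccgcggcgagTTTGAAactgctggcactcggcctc
Pttg1: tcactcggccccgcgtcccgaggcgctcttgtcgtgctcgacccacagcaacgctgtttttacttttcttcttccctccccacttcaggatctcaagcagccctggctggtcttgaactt
Ncaph: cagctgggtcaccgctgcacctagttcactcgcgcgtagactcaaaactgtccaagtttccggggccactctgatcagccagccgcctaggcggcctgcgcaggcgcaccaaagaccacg
Birc5: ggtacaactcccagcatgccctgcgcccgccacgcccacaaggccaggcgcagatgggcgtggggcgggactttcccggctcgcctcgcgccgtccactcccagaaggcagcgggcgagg
Mad2l1: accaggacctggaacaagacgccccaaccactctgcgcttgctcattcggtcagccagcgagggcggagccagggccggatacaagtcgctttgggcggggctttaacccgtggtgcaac

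Among the 31 genes called higher that have a window, 28 had a CHR match, 27 a CCAAT match and 1, Nuf2, neither. Of the 5 with no call, Cdk1 had both motifs and the other 4 had neither in their 300 bases. By motif, the median log2 fold change was 0.56 for the 26 genes with both and 0.09 for the 5 with neither. It was 1.45 for the 3 with a CHR match alone and 1.00 for the 2 with a CCAAT match alone. Groups this small do not allow an order among the motifs, and none was tested. Absence from these windows means only that the letters are not in them. The RefSeq start used for Pttg1 lies 270 bases and that of Mad2l1 169 bases from the outer end of the gene in the GENCODE annotation, whereas the starts of Ncaph and Birc5 lie 0 and 14 bases from it. The 793 other tested genes with both motifs had a median of 0.03 and 34.8% were called higher, and the 4990 with neither had a median of -0.03 and 32.3% were called higher.

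**Figure D2:**
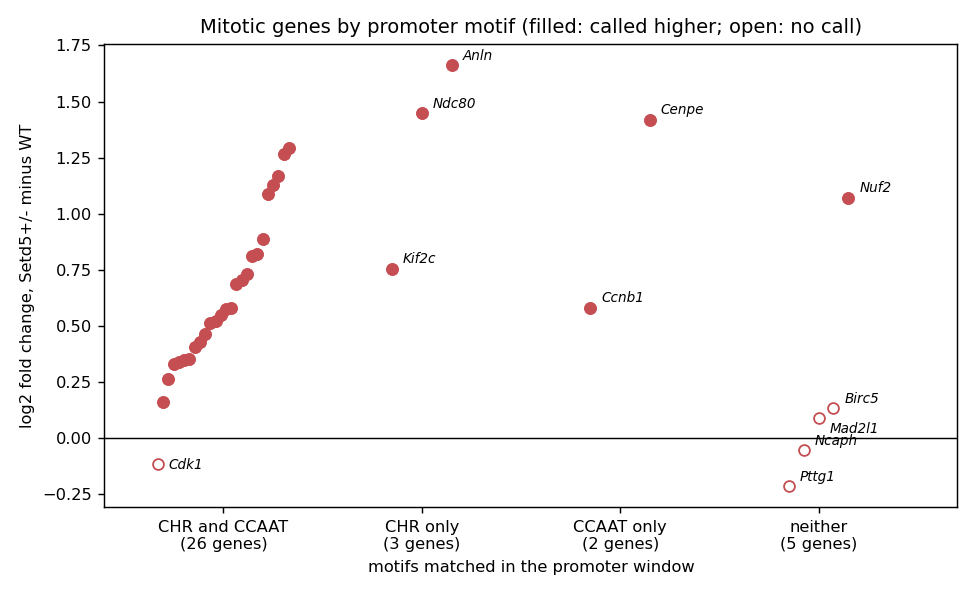
Log2 fold change (Setd5+/- minus WT) of the 36 mitotic genes with a promoter window, by the motifs matched in it, each point 1 gene, filled where it was called higher. Of the 26 genes with both motifs all but Cdk1 were called higher, and of the 5 genes with neither only Nuf2 was.

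The kinases, cyclins and phosphatases that start mitosis did not move as a unit. Of 8 genes, 6 were called higher, beside 30.3% of all tested genes, and the median log2 fold change of the 8 was 0.58. Ccnb2, a cyclin B, measured 228, 219 and 218 in the WT samples against 567, 548 and 521 in the Setd5+/- ones. Its lowest Setd5+/- value was 2.28 times its highest WT value, and the log2 fold change was 1.29 (1.12 to 1.47). Aurka, the Aurora kinase of centrosomes and spindle poles, measured 226, 239.9 and 229 in the WT samples against 501, 550.2 and 519 in the Setd5+/- ones. No values overlapped, and the log2 fold change was 1.17 (1.00 to 1.35). Ccnb1, the main mitotic cyclin, measured 239.6, 201 and 212 in the WT samples against 339.7, 299 and 338 in the Setd5+/- ones, again without overlap, a log2 change of 0.58 (0.39 to 0.78). Near-identical pseudogenes exist for Ccnb1, and its closest copy Ccnb1-ps went from 82.5 to 149 normalized counts, and reads shared with it cannot be placed with certainty. With the pseudogene copies added, the log2 fold change of Ccnb1 was 0.66. Plk1, the Polo kinase that acts from mitotic entry to cytokinesis, measured 293, 301 and 269 in the WT samples against 441, 407 and 444 in the Setd5+/- ones. The Setd5+/- values were the higher ones throughout, with a log2 change of 0.58 (0.41 to 0.75). Cdc25c, a phosphatase that removes the inhibitory phosphates of Cdk1, measured 146, 163 and 141 in the WT samples against 242, 256 and 259.7 in the Setd5+/- ones, also without overlap, a log2 change of 0.75 (0.52 to 0.98). Cdc25b, its relative, had means of 568 and 785 and a log2 change of 0.47 (0.34 to 0.59).

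Cdk1 and Ccna2 were the exceptions among these regulators. Cdk1, the kinase that the B cyclins activate, measured 582, 596 and 597 in the WT samples against 595, 541 and 507 in the Setd5+/- ones. The values overlapped, and the log2 fold change was -0.11 (-0.25 to 0.02). Ccna2, cyclin A of S and G2 phase, had means of 1220.2 and 1181 normalized counts and a log2 change of -0.05 (-0.14 to 0.05). Of the exon bases of Ccna2, 12.5% overlap those of Exosc9 on the opposite strand, and whether the counting used strand is not stated. The gap between the partners was wider than counting error: the log2 ratio of Ccnb2 exceeded that of Cdk1 by 1.41 (1.19 to 1.63) and that of Ccnb1 exceeded it by 0.69 (0.46 to 0.93). Per kilobase of exon, the level of Ccnb2 was 1.21 times that of Cdk1 in WT and 3.21 times in Setd5+/- NSCs. The Cdk1 promoter printed above holds a pair of CHR and a pair of CCAAT matches. Without Setd5+/- replicate 1, limma called Cdk1 lower, at a log2 change of -0.18.

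The chromosomal passenger complex corrects the attachment of chromosomes to the spindle, with Aurkb as its kinase and Incenp, Birc5 and Cdca8 as the subunits that place it. Cdca8 (borealin) measured 483, 499.7 and 522 in the WT samples against 989, 923 and 873 in the Setd5+/- ones. Its values were separated by a wide gap, and the log2 fold change was 0.89 (0.77 to 1.01). Incenp, the scaffold, measured 571, 602 and 568 in the WT samples against 843, 866 and 808 in the Setd5+/- ones, a log2 change of 0.53 (0.41 to 0.65). The kinase and Birc5 (survivin) did not follow. Aurkb measured 336, 326 and 347 in the WT samples against 333, 329 and 365 in the Setd5+/- ones, values that overlapped, with a log2 change of 0.02 (-0.15 to 0.20). Birc5 had means of 300.1 and 329 and a log2 change of 0.13 (-0.05 to 0.31). In 5 of the 6 pairs of these subunits the 95% counting interval of the difference between log2 ratios left out 0, and the exception was Birc5 against Aurkb, at 0.11 (-0.14 to 0.36). The log2 ratio of Cdca8 exceeded that of Aurkb by 0.86 (0.65 to 1.08). The 2 Aurora kinases also parted, with a log2 ratio of Aurka that exceeded that of Aurkb by 1.15 (0.90 to 1.40).

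Kinetochore and centromere genes rose throughout. All 7 were called higher, beside 30.3% of all tested genes, and the median log2 change of the 7 was 1.07. Ndc80, which grips microtubules at the outer kinetochore, measured 81.3, 106 and 96.9 in the WT samples against 277, 292 and 214 in the Setd5+/- ones. It was the lowest of the 44 in WT per kilobase of exon, at 14.6 normalized counts, and the log2 fold change was 1.45 (1.2 to 1.72). Pseudogenes near-identical to a part of Ndc80 exist, the longest match 303 bases, and reads shared with them cannot be placed with certainty. Cenpe, a kinesin that carries chromosomes to the spindle equator, measured 352, 358 and 360.2 in the WT samples against 949, 968 and 951 in the Setd5+/- ones. The samples of a genotype, which are parts of 1 library, lay close together and far from the other genotype, at a log2 change of 1.42 (1.29 to 1.56). Cenpf, a large protein of the outer kinetochore, measured 725, 635 and 709.7 in the WT samples against 1616, 1649 and 1709 in the Setd5+/- ones, a log2 change of 1.27 (1.17 to 1.36). Nuf2, the partner of Ndc80, measured 464, 405 and 388 in the WT samples against 893, 905 and 842 in the Setd5+/- ones, a log2 change of 1.07 (0.94 to 1.2). These last 2 are the members on chromosome 1, whose 1044 tested genes lay at a median of 0.53 on the log2 scale with 63.2% called higher, against -0.04 and 28.1% for genes of other chromosomes. The part of that chromosome-wide difference in Cenpf and Nuf2 was not tested, and both exceeded its median. Cenpa, the histone H3 variant that marks centromeres, measured 589, 602 and 583 in the WT samples against 1058, 993 and 1086 in the Setd5+/- ones. It rose without overlap, a log2 change of 0.82 (0.71 to 0.94). Spc25 measured 237, 207 and 207 in the WT samples against 359, 379.9 and 405 in the Setd5+/- ones, a log2 change of 0.81 (0.62 to 1.00). Spc24, the smallest rise of the group, measured 163, 151 and 128 in the WT samples against 176, 213 and 213 in the Setd5+/- ones. Its lowest Setd5+/- value was close to its highest WT value, and the log2 fold change was 0.45 (0.20 to 0.69). Both are the subunits that tie the Ndc80 complex to the inner kinetochore. All 6 pairs of subunits of this complex differed by more than counting error, in the order Ndc80, Nuf2, Spc25 and Spc24, and Ndc80 exceeded Spc24 by 1.02 (0.66 to 1.37) on the log2 scale.

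The proteins of the central spindle and of cytokinesis held the largest rise. All 5 were called higher, beside 30.3% of all tested genes, and the median log2 change of the 5 was 1.09. Anln, anillin, the scaffold that links actin, myosin and septins in the cleavage furrow, measured 322, 359.9 and 393 in the WT samples against 1129, 1119 and 1151 in the Setd5+/- ones. The lowest Setd5+/- value was 2.85 times the highest WT value, and the log2 fold change was 1.66 (1.53 to 1.79). Prc1, which bundles the antiparallel microtubules between the separating chromosomes, measured 538, 529 and 599 in the WT samples against 1232, 1180.1 and 1233 in the Setd5+/- ones, a log2 change of 1.13 (1.02 to 1.24). Kif23, the kinesin of the centralspindlin complex, measured 334, 298 and 301 in the WT samples against 677, 667 and 637 in the Setd5+/- ones, a log2 change of 1.09 (0.94 to 1.24). The lowest Setd5+/- value of Kif23 was 1.91 times its highest WT value, and that of Prc1 was 1.97 times. Kif20a, a kinesin that carries the passenger complex to the midzone, measured 637, 635 and 638 in the WT samples against 1066, 1057 and 1063 in the Setd5+/- ones, a log2 change of 0.74 (0.63 to 0.85). Its samples of a genotype lay very close together, but as parts of 1 library they show counting error only. Of the exon bases of Kif20a, 29.3% overlap those of Cdc23 on the opposite strand, and whether the counting used strand is not stated. Ect2, the exchange factor that activates RhoA at the furrow, measured 383, 422 and 419.9 in the WT samples against 669.8, 678 and 687 in the Setd5+/- ones, a log2 change of 0.73 (0.59 to 0.87).

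**Figure D3:**
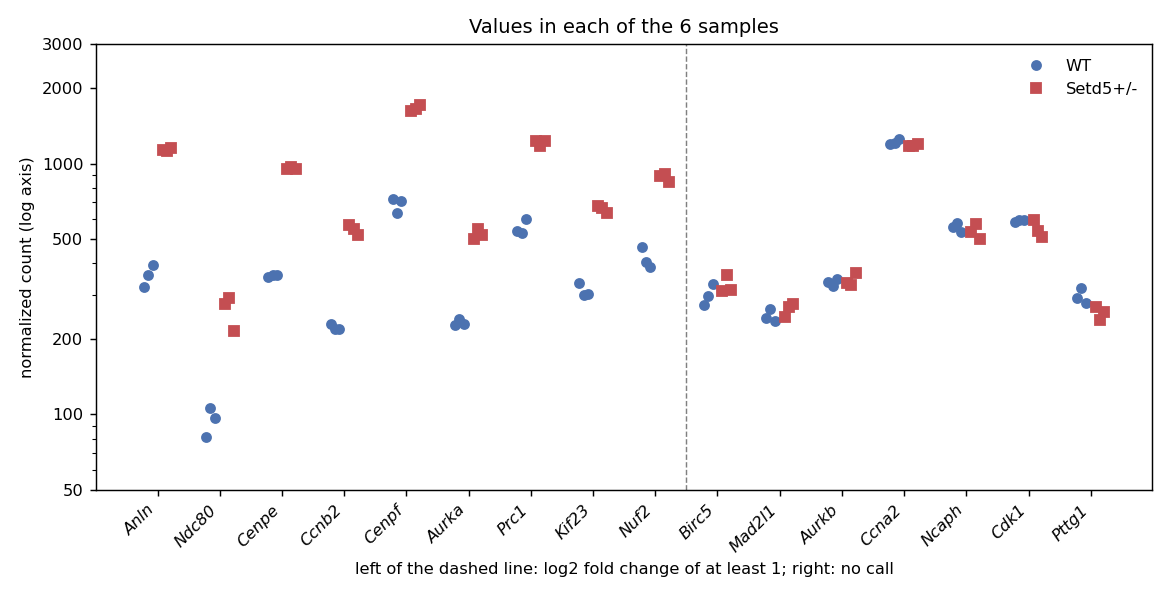
Normalized counts on a log axis in the 3 WT (circles) and 3 Setd5+/- samples (squares), which are parts of 1 library per genotype, for the 9 mitotic genes with a log2 fold change of at least 1 and the 7 with no call. Left of the dashed line the genotypes do not overlap, from Anln to Nuf2, and right of it their values lie close together.

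Spindle motors and microtubule proteins were all called higher, 4 of 4, beside 30.3% of all tested genes. Their median log2 change was 0.67. Tpx2, which activates Aurka and nucleates spindle microtubules, measured 583, 616 and 609 in the WT samples against 999.9, 1106 and 1096 in the Setd5+/- ones. It rose without overlap, a log2 change of 0.82 (0.71 to 0.94). Kif2c, a kinesin that takes microtubules apart at centromeres, measured 238, 248 and 253 in the WT samples against 492, 398 and 368 in the Setd5+/- ones, a log2 change of 0.76 (0.59 to 0.95). Its first Setd5+/- value was the highest, and all 3 lay above WT. Kif4, a chromosome-bound kinesin, measured 354, 359.9 and 321 in the WT samples against 501, 504 and 539.6 in the Setd5+/- ones, a log2 change of 0.58 (0.42 to 0.73). Kif11, the motor that pushes spindle poles apart, measured 452, 404 and 427 in the WT samples against 505, 573 and 544 in the Setd5+/- ones. Its rise was the smallest of the group, with a log2 change of 0.34 (0.19 to 0.48).

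The spindle checkpoint, which holds the APC/C back until chromosomes are attached, is represented by 5 genes. Of these, 4 were called higher, beside 30.3% of all tested genes, and the median log2 change of the 5 was 0.33. Ttk, the kinase also named Mps1 that starts checkpoint signalling, measured 187, 213 and 224 in the WT samples against 296, 283 and 312 in the Setd5+/- ones. There was no overlap, and the log2 fold change was 0.51 (0.31 to 0.72). Bub1b (BubR1) had means of 490.0 and 624 and a log2 change of 0.35 (0.21 to 0.49), the kinase Bub1 means of 290.2 and 366 and a log2 change of 0.33 (0.16 to 0.51), and Bub3, which binds both, means of 568 and 635 and a log2 change of 0.16 (0.03 to 0.29). Bub3 was the weakest of the 37 calls and its values overlapped. Its call was lost under 2 of 3 other scalings, with no filter, and when WT replicate 2, WT replicate 3, Setd5+/- replicate 1 or Setd5+/- replicate 2 was left out. Mad2l1, which binds and inhibits Cdc20, measured 243, 263 and 235 in the WT samples against 244, 268 and 276 in the Setd5+/- ones. The values overlapped, with a log2 change of 0.09 (-0.11 to 0.29) and no call.

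Among the activators and targets of the APC/C, 3 of 4 genes were called higher, beside 30.3% of all tested genes. The median log2 change of the 4 was 0.42. Espl1, separase, the protease that opens the cohesin ring, measured 383, 310.2 and 364 in the WT samples against 512, 543 and 489.6 in the Setd5+/- ones. All Setd5+/- values were higher, a log2 change of 0.55 (0.39 to 0.70). Pttg1, securin, which inhibits separase, measured 291, 318 and 277 in the WT samples against 268, 238 and 256 in the Setd5+/- ones. Pttg1 and Ccna2 were the members whose Setd5+/- values all lay below those of WT. The log2 fold change of Pttg1 was -0.21 (-0.41 to -0.02), with no call by limma although the counting interval left out 0, and it was called lower with a higher filter, under 2 of 3 other scalings, and when WT replicate 3 or Setd5+/- replicate 1 was left out. The log2 ratio of Espl1 exceeded that of its inhibitor by 0.76 (0.51 to 1.01). Ube2c, the ubiquitin-conjugating enzyme of the APC/C, had means of 224 and 301 and a log2 change of 0.43 (0.23 to 0.63), and Cdc20, its activator, means of 337 and 445 and a log2 change of 0.41 (0.24 to 0.56). The exons of Ube2c overlap those of Tnnc2 on the other strand over 22.8% of their bases.

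Condensin I, topoisomerase and the chromosome surface protein Ki-67 shape mitotic chromosomes. Of the 7 genes, 6 were called higher, beside 30.3% of all tested genes, and the median log2 change of the 7 was 0.38. Top2a, the topoisomerase that untangles sister DNA, measured 1878, 1807 and 1858 in the WT samples against 2558, 2713 and 2689 in the Setd5+/- ones. Its mean was the highest of the 44 in both genotypes, and its genotypes did not overlap, a log2 change of 0.52 (0.45 to 0.59). Mki67, the gene of the proliferation marker Ki-67, measured 1848, 1867 and 1747 in the WT samples against 2280.0, 2423 and 2279 in the Setd5+/- ones. It was higher in each Setd5+/- sample, by the modest log2 change of 0.35 (0.28 to 0.42). Of the condensin ATPases, Smc2 measured 671, 622 and 675 in the WT samples against 1124, 1017 and 1071 in the Setd5+/- ones, a log2 change of 0.71 (0.60 to 0.82). Smc4, the other ATPase, had means of 828 and 1078 and a log2 change of 0.38 (0.28 to 0.49). Of the regulatory subunits, Ncapg measured 431, 391 and 433 in the WT samples against 712, 674 and 635 in the Setd5+/- ones, a log2 change of 0.68 (0.55 to 0.83), and Ncapd2 had means of 1053 and 1264 and a log2 change of 0.26 (0.17 to 0.36). Ncaph, the kleisin that closes the ring, measured 557, 577 and 532 in the WT samples against 534, 574 and 500.3 in the Setd5+/- ones. Its values overlapped, with a log2 change of -0.05 (-0.19 to 0.09). In 8 of the 10 pairs of condensin I subunits the interval of the difference left out 0, and Smc2 exceeded Ncaph by 0.76 (0.58 to 0.94).

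The order of levels changed at the top and less at the bottom, in normalized counts per kilobase of exon. Ccna2 (299) and Top2a (205) were the highest of the 44 in WT and Ndc80 (14.6) and Mad2l1 (29.4) the lowest. In Setd5+/- NSCs Ccnb2, with 356, was the highest, ahead of Top2a with 294 and Ccna2 with 289, and Mad2l1, with 31.3, was the lowest. This order depends on annotated length, all exons of a gene merged, which is 1531 bases for Ccnb2 and 8390 for Mad2l1. By normalized counts alone Top2a was the highest in both genotypes. The lowest was then Ndc80 in WT, with 94.7, and Spc24 in Setd5+/- NSCs, with 201.

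Other genes of mitosis moved in a more mixed way. Of 120 further genes in 9 lists, all tested, 47 (39.2%) were called higher and 29 (24.2%) lower, with a median log2 change of 0.10. Among all tested genes 30.3% were called higher and 30.9% lower. The other mitotic kinesins and cytokinesis genes were nearest to the 44: 9 of 10 were called higher, with a median log2 change of 0.76, from Kif2a at -0.24 to Kif14 at 1.52. Of 15 centrosome and spindle pole genes, 9 were higher and 2 lower, with a median log2 change of 0.32, from Cep152, a centriole duplication gene, at -1.08 to Nek2, a centrosome kinase, at 2.10. Of 23 further centromere and kinetochore genes, 8 were higher and 1 lower, with a median log2 change of 0.20, from Zwint at -1.01 to Cenpl at 1.38. The remaining sets had smaller medians. For the other spindle checkpoint genes, 3 of 7 were higher and 1 lower, with a median log2 change of 0.06, from Trip13 at -0.47 to Spdl1 at 1.11. For 14 other kinases and phosphatase regulators of mitotic entry and exit, 5 were higher and 5 lower, with a median log2 change of 0.09, from Cdc25a at -0.65 to Nek7 at 0.69. For 16 cohesin genes, 6 were higher and 5 lower, with a median log2 change of 0.01. They ran from Cdca5 (sororin) at -0.54 to Sgo2a (a shugoshin) at 1.05. The shares called higher of the further kinetochore (34.8%), entry and exit (35.7%) and cohesin (37.5%) genes were near that of all genes. Kif14, Nek2, Cenpl, Nek7 and Sgo2a, each the largest rise of its list, lie on chromosome 1, as do Aspm, Nsl1 and Hjurp of these lists. Tested genes of chromosome 1 had a median log2 change of 0.53 with 63.2% called higher, against -0.04 and 28.1% for other chromosomes. The part of that chromosome-wide difference in these lists was not tested.

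The subunits of the APC/C and the transcription factors of G2 and M phase were not higher as groups. Of 17 APC/C genes, 5 were higher and 5 lower, 29.4% each, beside 30.3% and 30.9% of all tested genes. Their median log2 change was -0.10, from Anapc10 at -0.60 to Ube2s at 0.59. Condensin II, which differs from condensin I in its regulatory subunits, had 1 of 3 genes higher and 1 lower, from Ncapd3 at -0.32 to Ncapg2 at 0.32. Of 15 genes of the MuvB, DREAM, FoxM1 and NF-Y regulators, 1 (6.67%) was higher and 8 (53.3%) were lower. Their median log2 change was -0.30, from Nfyc, an NF-Y subunit, at -0.95 to Rbl1 (p107) at 0.50. Foxm1 and Mybl2 (B-Myb), chosen here after their values were seen, had log2 fold changes of 0.06 with no call and -0.90, called lower.

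DNA replication genes were mostly lower. Of 45, 32 (71.1%) were called lower and 5 (11.1%) higher, beside 0 lower and 37 higher of the 44 mitotic genes. The shares among all tested genes were 30.9% and 30.3%. The median log2 change of the replication genes was -0.49. Their range ran from Cdc6, which loads the replicative helicase, at -1.90 to Orc5, an origin recognition subunit, at 0.84. Of 21 genes of G1 cyclins, CDK inhibitors and the p53 pathway, 12 (57.1%) were lower and 6 (28.6%) higher, beside 30.9% and 30.3% of all tested genes, and their median was -0.37 on that scale. They ran from Cdkn2a, a tumour suppressor locus, at -4.17 to Cdk6, a kinase of G1, at 3.28. Promoter matches differed too, with both motifs in the windows of 16.2% of the 37 matched replication genes and of 72.2% of the 36 matched mitotic genes.

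**Figure D4:**
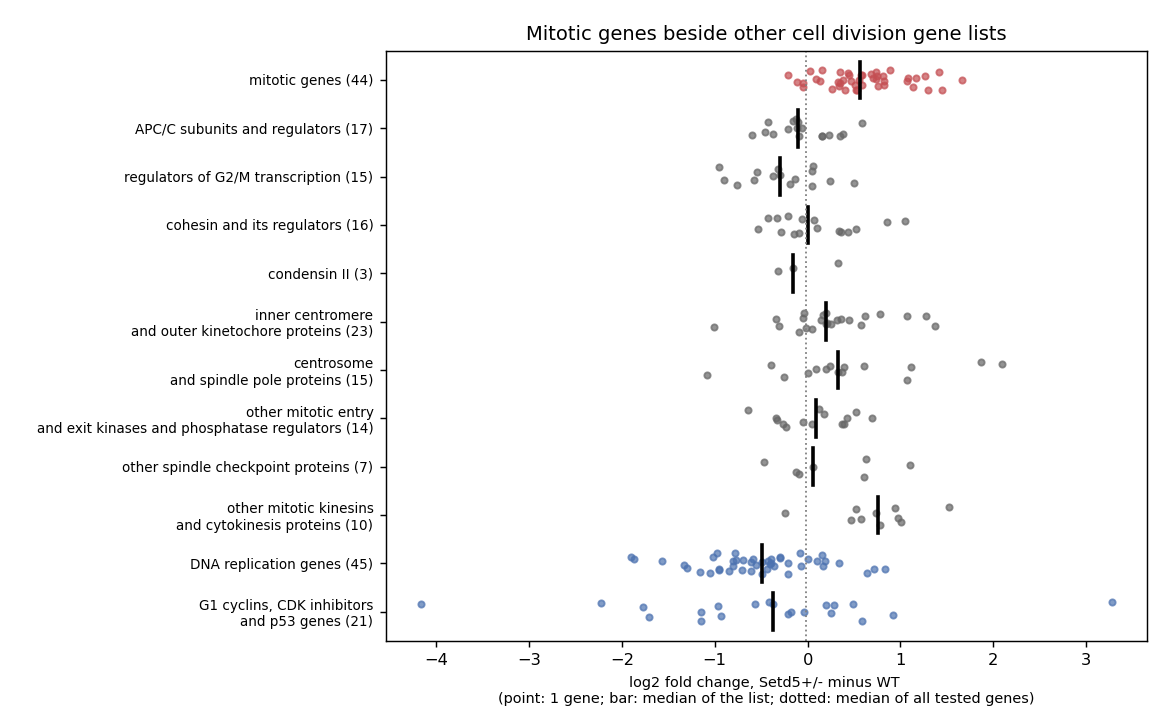
Log2 fold change (Setd5+/- minus WT) of each gene in the mitotic set and in 11 other lists of cell division genes, with the median of each list as a black bar and the median of all tested genes as a dotted line. The mitotic genes (median 0.56) and the other mitotic kinesins and cytokinesis genes (0.76) lie to the right, and the DNA replication genes (-0.49) to the left.

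Exon length moved with the fold change over all genes. In the tested protein-coding genes, the median log2 fold change was -0.13 in the fifth with the shortest exons (up to 2613 bases) and 0.11 in the fifth with the longest (from 7891 bases). The mitotic genes of these classes had medians of 0.45 (7 genes) and 1.09 (9 genes), and in each of the 5 classes their median was above that of all genes. In the 7495 protein-coding genes within the range of mean level of the 44, from 174 to 2250 normalized counts, the median was -0.03 and 35.6% were called higher. The part of exon length in the rises was not tested. Of the 44 genes, 39 had no near-identical pseudogene, with 33 called higher and a median of 0.58. Ccnb1, Cdc20, Mad2l1, Mki67 and Ndc80 had one. Another 33 of the 44, a set that overlaps the 39, had exons that overlap no gene of the opposite strand, with 27 called higher and a median of 0.53. Besides Kif20a and Ube2c, such overlaps covered 15.1% of the exon bases of Kif4, 13.4% of Ncapg, 12.7% of Cdc25c, 12.5% of Ccna2 and 11.1% of Prc1. They covered less of Plk1, Cdca8, Cdc20 and Cdc25b. Without the 2 members on chromosome 1, 35 of 42 were called higher, with a median log2 change of 0.54.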

How the data were processed

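RNA of mouse cortical NSCs grown at 21% oxygen was analysed, in 3 samples labelled WT and 3 labelled Setd5+/-. Per the labels and the methods of the study, TruSeq RNA v2 libraries were sequenced, trimmed with Trimmomatic, aligned to mm10 with Bowtie2 and analysed with DESeq2. The counting program and its use of strand are not given in the sources used here. The values that the authors deposited are normalized counts, each read count divided by the size factor of its sample, and their decimal points were lost. All 6 columns were used. The columns of the authors' own comparison (fold changes and p-values) were not used.

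Decimal points were restored by placing each value on a whole number of reads and, where several places fitted, on the deposited mean. The digits of the restored mean equalled those of the deposited mean for 52438 of 52438 genes with values. The deposited mean was not needed for 27530 of these, so the match is a check only there. For 995 genes neither rule decided, and the lowest values were taken. The samples held 9995980 to 10004948 reads in WT and 7143309 to 7146147 in Setd5+/-.

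Because the 3 samples of a genotype differed by less than sampling noise, n is 1 per genotype. Log2(normalized count + 1) of the 16266 genes that averaged at least 10 was fitted with limma 3.58.1 (lmFit, eBayes with trend, Benjamini-Hochberg, 0.05, R 4.3.3), a test of the reads of the 2 libraries. The planned design assumed that the samples could be replicates. A log2 fold change is Setd5+/- minus WT. The 95% counting intervals use the summed reads, with the variance scaled by 1.94, the ratio of variance to mean within a genotype. The fit was tested on simulated data. Gene positions and exon lengths (all annotated exons of a gene merged) are from GENCODE M21 (GRCm38). Promoters are from RefSeq (GRCm38.p6), and copies were found with BLAST 2.17.0. Values in each sample are given for the members with the largest fall and rise of each role group, those past 0.5 on the log2 scale in either direction, and Mki67, Top2a, Cdk1, Ccnb1, Plk1 and Aurkb. Of other lists the genes with the largest fall and rise are named. The members and lists were chosen with earlier results of these data known. Alternatives to the pseudocount, filter, scaling, threshold, block and samples used were computed.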

Additional observations from a re-analysis of the deposited data

How the results depend on the processing

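The median log2 fold change of the 44 genes stayed between 0.52 and 0.60 under every other pseudocount, filter, scaling and omission of 1 sample, and their count called higher at 36 or 37 under each of these. The count called higher fell to 26 and 9 when a log2 fold change of at least 0.5 or 1 was also required, and the counts over all genes were then 3313 and 1668 higher and 2812 and 1028 lower. The count called lower was 0 as reported. It was 1, Pttg1, with a filter at a mean of 50 normalized counts, with samples scaled to the same total or the same upper quartile, and with the counting interval in place of the test. Leaving out 1 sample at a time gave 36 to 37 higher and 0 to 2 lower mitotic genes, a median of 0.55 to 0.60, and 4629 to 4772 higher and 4492 to 4860 lower genes overall. Without Setd5+/- replicate 1 the 2 lower calls were Cdk1 (-0.18) and Pttg1 (-0.25), and without WT replicate 3 Pttg1 was called lower. Bub3 lost its call in 7 alternatives. The fit with a replicate block, which the labels' numbers allow, gave 37 higher and 0 lower mitotic genes, a median of 0.56, and 4934 higher and 5012 lower genes overall. Same-numbered samples did not deviate together (correlations of -0.01 to 0.00 for the 3 pairs). Scaling moved the median of all genes from -0.02 to between -0.06 and 0.01. The alternatives on chromosome 1, pseudogenes and overlapping exons were chosen after seeing the data. With 1 library per genotype, none of these alternatives measures how cultures or clones of a genotype differ. The cause of the changes in calls was not tested. Counting error limits the genes with the fewest reads most, such as Ndc80 and Spc24.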
